A study of Mus musculus with 24 samples.

Results

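The cadherin superfamily genes described here are 57 genes of the array annotation, 22 of them named Cdh with a number and 35 named Pcdh. They were taken by symbol, with the VE-cadherin gene Cdh5 left out, from probe sets that carry exactly 1 symbol, and a gene with several such probe sets is given by the brightest, judged by its mean over the 24 arrays. The 57 genes are part of 22180 genes measured this way. They comprise 5 classical type I cadherins, 12 type II cadherins, 5 other cadherins, 12 non-clustered protocadherins, 22 beta protocadherins and Pcdhga10, the single gamma protocadherin with a probe set of its own. No alpha protocadherin had one.

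Expression was measured on Affymetrix arrays in cells taken from mouse brain tumours and normal hindbrain with magnetic beads and antibodies against Cd144 (VE-cadherin) and Cd105 (endoglin), surface proteins of endothelial cells. The Wnt group came from Wnt medulloblastomas of mice with Blbp-Cre, 1 Ctnnb1 allele with a floxed Exon3, floxed Pik3ca on 1 allele and Trp53 floxed on both. The Shh group came from Shh medulloblastomas of Ptch+/- and Ink4c-/- mice. The hindbrain group came from wild type adult hindbrain, and each group held 8 arrays called biological replicates. All mice were of mixed strain background, and neither the ages of the tumour-bearing mice nor any pooling of animals is stated in the labels. Blbp-Cre acts in neural progenitors and radial glia, so the Wnt alleles target the tumour lineage, and no Cre is named for the Ptch and Ink4c alleles of the Shh mice.

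Cadherins are membrane proteins whose extracellular repeats bind calcium and pair with cadherins on the next cell. Classical type I and type II cadherins hold catenins at their cytoplasmic tail and through them the actin cytoskeleton, and endothelial cells use VE-cadherin and N-cadherin (Cdh2) in this way. Protocadherins have no classical catenin-binding tail. The non-clustered ones are known from neural tissue and embryonic boundaries, and the clustered alpha, beta and gamma genes are best known for giving single neurons a surface identity through the choice among many promoters.

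Values are log2 intensities of the deposited table. A ± gives the standard error (SE) of a log2 fold change, and with a group mean it gives the standard deviation (SD, n = 8). A gene was called when its Benjamini-Hochberg adjusted p from limma, over all 22180 genes, was under 0.05. ERCC control probe sets, which match no mouse gene, were centred on 3.96 with their 95th percentile at 5.24, and 51 of the 57 genes had a mean above 5.24 in at least 1 group. The other 6 genes (Pcdhb1, Pcdh11x, Cdh9, Cdh12, Cdh17 and Cdh19) had group means between 3.45 and 5.07, so that the size of their differences is uncertain. Levels of different genes are not compared, because each probe set has its own brightness.

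Promoters are printed for Cdh6, Pcdh7, Pcdh8 and Pcdh20, to show the start regions of some of the genes that were higher in Wnt arrays than in both other groups. RefSeq promoters of GRCm38.p6, from 250 bases before to 50 after the start, matched 22 of the 57 genes by symbol. Each is written 5′ to 3′ on the strand of its gene, and capitals mark CTTTG (the TCF/LEF core), CACCTG (the Snail/Zeb E-box), GGGCGG (the GC box) and TATAAA (the TATA box) on both strands.
Cdh6 (chr15:13173626-13173925, minus strand): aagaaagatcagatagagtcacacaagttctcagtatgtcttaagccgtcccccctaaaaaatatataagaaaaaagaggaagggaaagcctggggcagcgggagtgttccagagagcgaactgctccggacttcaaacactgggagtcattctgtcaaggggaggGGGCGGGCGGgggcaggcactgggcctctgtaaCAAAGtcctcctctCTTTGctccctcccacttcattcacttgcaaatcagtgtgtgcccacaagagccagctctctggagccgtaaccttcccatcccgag
Pcdh7 (chr5:57717831-57718130, plus strand): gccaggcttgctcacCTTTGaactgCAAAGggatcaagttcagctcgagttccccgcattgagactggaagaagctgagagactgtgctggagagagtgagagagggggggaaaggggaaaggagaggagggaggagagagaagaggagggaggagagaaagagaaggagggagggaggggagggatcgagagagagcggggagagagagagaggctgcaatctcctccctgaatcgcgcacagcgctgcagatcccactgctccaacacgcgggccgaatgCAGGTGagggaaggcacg
Pcdh8 (chr14:79771263-79771562, minus strand): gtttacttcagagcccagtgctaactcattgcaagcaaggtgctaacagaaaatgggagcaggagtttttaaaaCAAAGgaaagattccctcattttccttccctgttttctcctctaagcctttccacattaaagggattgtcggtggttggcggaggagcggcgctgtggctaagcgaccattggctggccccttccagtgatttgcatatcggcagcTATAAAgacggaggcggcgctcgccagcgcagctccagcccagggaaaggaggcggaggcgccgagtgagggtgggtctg
Pcdh20 (chr14:88471347-88471646, minus strand): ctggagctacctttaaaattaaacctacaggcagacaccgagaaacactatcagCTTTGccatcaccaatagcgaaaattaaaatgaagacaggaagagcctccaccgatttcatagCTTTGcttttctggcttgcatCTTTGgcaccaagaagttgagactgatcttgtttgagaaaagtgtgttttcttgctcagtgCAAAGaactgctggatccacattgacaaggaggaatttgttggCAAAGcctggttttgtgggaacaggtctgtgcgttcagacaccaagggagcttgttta

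Among these promoters the TCF/LEF core occurred 2 times for Cdh6, 2 times for Pcdh7, 1 time for Pcdh8 and 5 times for Pcdh20. It was found 0 times for Cdh22 and Pcdh17, which were also called higher in Wnt arrays than in both other groups. It was likewise found 0 times for Cdh20, which was higher in Wnt arrays than in hindbrain. The promoters of Cdh22, Pcdh17 and Cdh20 are not printed. Of 25 promoters of the family, 15 held it (60%), against 53.9% of 32851 promoters of the same length. These 25 promoters belong to 22 of the 57 genes, with Cdh7 and Pcdh9 counted more than once. None is of a beta protocadherin, Cdh2 or Cdh11, so the shares do not cover the whole family. The GC box occurred 2 times, overlapping, for Cdh6, and was found in 36% of the family's promoters against 35.7% of all. The E-box was found 1 time for Pcdh7, in 20% of the family's promoters and in 20.2% of all. The TATA box was found 1 time for Pcdh8, in 8% of the family's promoters and in 13.6% of all. The motifs were chosen after the expression values had been seen, and these matches describe letters in the windows.

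Marker lists of 10 cell types were read in the sorted cells. Of all genes, 23.2% were called higher and 22% lower in Wnt against hindbrain, and 18.9% each way in Shh against hindbrain. In Wnt against Shh, 17.8% of all genes were called lower. Counts below of 1 or 2 genes of a list, and of 3 of 16, lie near or under these shares. All 16 endothelial markers had group means above the ERCC range in every group, and their mean per array lay between 9.81 and 11.10 in Wnt, 11.28 and 11.79 in Shh and 11.51 and 11.89 in hindbrain arrays. In Wnt arrays 16 of 16 were lower than in hindbrain and 15 of 16 lower than in Shh arrays, and in Shh arrays 3 of 16 were lower than in hindbrain. Fibroblast markers averaged 9.11 to 10.43 in Wnt, 9.04 to 10.11 in Shh and 7.79 to 8.52 in hindbrain arrays. Of these, 8 of 10 were higher and 1 of 10 lower in Wnt than in hindbrain, and the same counts held in Shh. Granule neuron precursor markers averaged 6.69 to 7.41 in Wnt, 7.86 to 9.29 in Shh and 6.86 to 7.28 in hindbrain arrays. Against hindbrain, 2 of 10 were higher and 1 of 10 lower in Wnt, and 9 of 10 were higher in Shh. In Wnt against Shh, 10 of 10 were lower. Microglia and macrophage markers averaged 7.58 to 9.31 in Wnt, 7.61 to 9.99 in Shh and 10.43 to 11.44 in hindbrain arrays, and 10 of 10 were lower in Wnt and 9 of 10 lower in Shh. Pericyte markers averaged 8.06 to 9.88 in Wnt, 9.95 to 10.48 in Shh and 9.58 to 10.68 in hindbrain arrays. Against hindbrain, 6 of 11 were lower in Wnt, and in Shh 1 of 11 was higher and 1 of 11 lower. Smooth muscle markers averaged 8.01 to 8.64 in Wnt, 7.32 to 7.96 in Shh and 8.63 to 9.37 in hindbrain arrays. Here 3 of 6 were lower in Wnt, and in Shh 5 of 6 were lower and 1 of 6 higher. Astrocyte markers averaged 7.64 to 8.18 in Wnt, 7.60 to 9.01 in Shh and 7.04 to 7.90 in hindbrain arrays. In Wnt 4 of 9 were higher and 1 of 9 lower, and in Shh 6 of 9 were higher. Choroid plexus and ependyma markers averaged 7.82 to 8.05 in Wnt, 6.33 to 7.67 in Shh and 6.17 to 9.05 in hindbrain arrays. Of these, 3 of 8 were higher in Wnt and 4 of 8 lower. Over the 8 genes the Wnt against hindbrain log2 fold changes ran from -3.20 to 4.93, with a median of -0.46. In Shh 1 of 8 was higher and 4 of 8 lower. Oligodendrocyte lineage markers averaged 6.23 to 6.54 in Wnt, 6.56 to 7.63 in Shh and 6.77 to 7.51 in hindbrain arrays, with 1 of 8 higher and 5 of 8 lower in Wnt and 3 of 8 higher and 4 of 8 lower in Shh. Neuron markers averaged 5.99 to 6.90 in Wnt, 5.999 to 7.20 in Shh and 6.14 to 7.38 in hindbrain arrays, with 4 of 9 higher and 4 of 9 lower in Wnt and 2 of 9 higher and 3 of 9 lower in Shh. No marker was at 0, and in Wnt arrays 2 granule neuron precursor, 1 neuron and 1 oligodendrocyte lineage marker lay within the ERCC range, in Shh arrays 2 neuron and 1 oligodendrocyte lineage marker, and in hindbrain arrays 1 neuron marker. The part of these other cells in the values below was not tested, and in such bulk samples fewer cells of a type and less RNA per cell cannot be told apart.

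Cadherins and protocadherins were more often higher than lower in both tumour groups. In Wnt against hindbrain, 35 of the 57 genes were called higher and 9 lower, with 13 not called, where 23.2% of all genes were called higher and 22% lower. In Shh against hindbrain, 28 rose, 4 fell and 25 did not pass, where 18.9% of all genes were called higher and 18.9% lower. In Wnt against Shh, 17 were higher, 12 lower and 28 did not pass, beside 18% of all genes higher and 17.8% lower. The 22 beta protocadherins, which are not independent genes, held 21 of the 35 higher and 0 of the 9 lower in Wnt against hindbrain. They held 16 of the 28 higher and 0 of the 4 lower in Shh against hindbrain. In Wnt against Shh they held 8 of the 17 higher and 1 of the 12 lower. Median changes in Wnt against hindbrain were 1.36 for them, 0.53 for type II cadherins and 0.47 for non-clustered protocadherins. The median log2 fold change of the 57 genes was 1.004 in Wnt against hindbrain, 0.65 in Shh against hindbrain and 0.12 in Wnt against Shh, beside medians of -0.02, -0.02 and -0.0019 over all genes. Both tumour comparisons share the hindbrain arrays, and each shares its tumour arrays with the Wnt against Shh comparison, so their counts are not independent of each other. The groups did not overlap, with every Wnt array above every hindbrain array, for 27 of the 57 genes, as for 10.6% of all genes. Every Shh array lay above every hindbrain array for 19 genes, as for 7.13% of all genes. Every Wnt array lay above every Shh array for 7 genes and below every Shh array for 4, as for 5.8% and 4.32% of all genes.

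**Figure D1:**
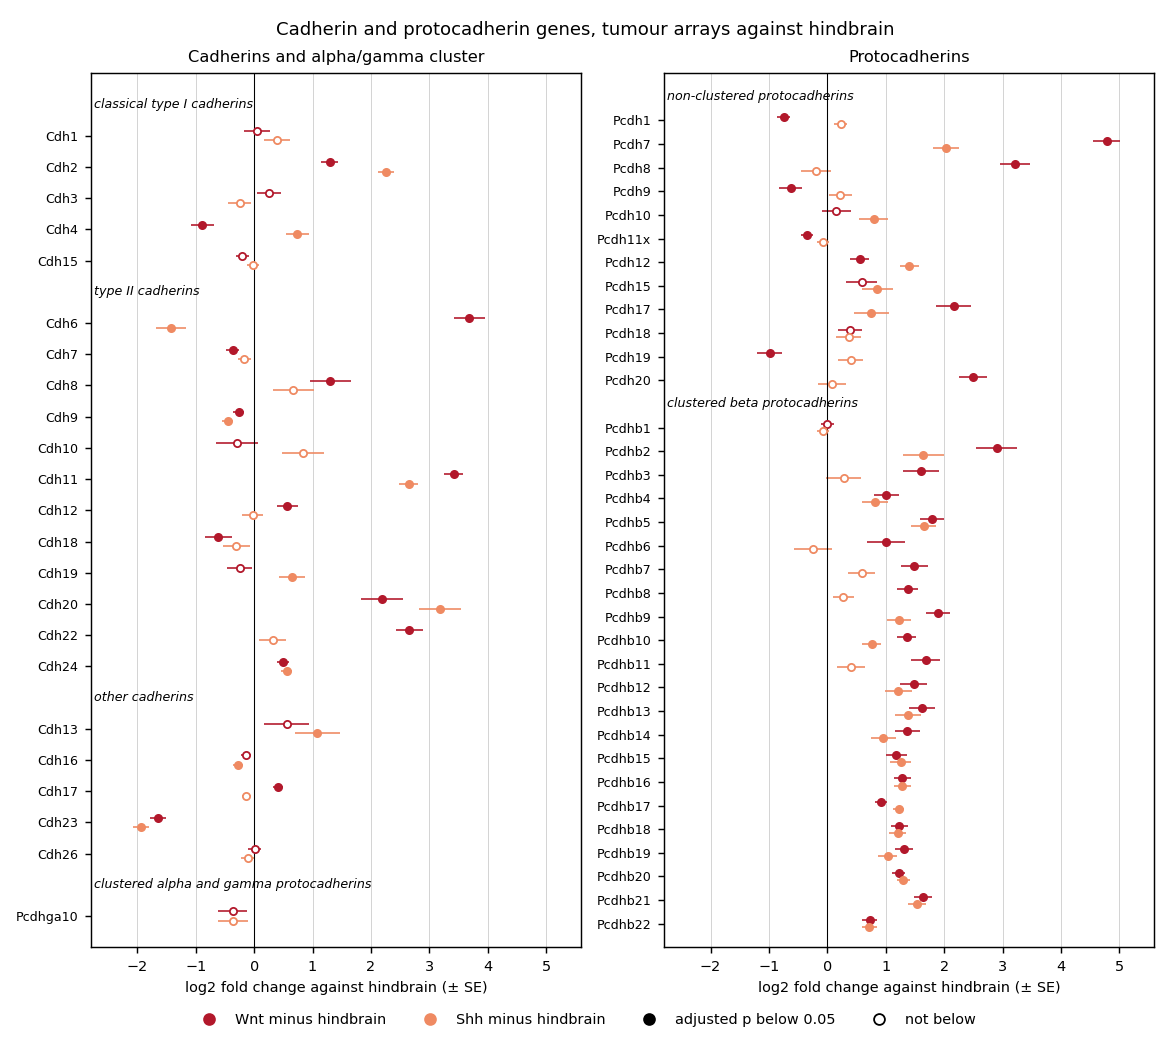
Log2 fold change of each of the 57 genes in Wnt (dark) and Shh (light) arrays against hindbrain arrays, with bars of ± 1 SE and filled points where the adjusted p was under 0.05. Pcdh7 reached 4.78 in Wnt, Cdh6 stood at 3.69 in Wnt and -1.42 in Shh, and the points of Pcdhb12 to Pcdhb22 lay between 0.72 and 1.64 in both.

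Of the classical type I cadherins, Cdh2 rose in both tumour groups, Cdh4 moved in opposite directions and the other three passed no test. N-cadherin, the product of Cdh2, joins neural cells and also links endothelial cells to pericytes. Cdh2 lay between 9.99 and 10.76 in Wnt arrays (median 10.34), between 11.11 and 11.56 in Shh arrays (median 11.28) and between 8.40 and 9.66 in hindbrain arrays (median 9.03). No 2 of these groups overlapped, with Shh arrays highest and hindbrain arrays lowest. Relative to hindbrain the log2 fold change was 1.29 ± 0.14 in Wnt (adjusted p = 3.38e-08) and 2.26 ± 0.14 in Shh (adjusted p = 1.01e-11), and it was -0.97 ± 0.14 in Wnt against Shh (adjusted p = 5.43e-06). A dimmer second probe set of Cdh2 gave 1.02, 1.90 and -0.88 for the same comparisons. With the endothelial marker mean as a covariate, the Wnt against Shh difference of Cdh2 was -0.65 and no longer called (adjusted p = 0.0645).

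R-cadherin, encoded by Cdh4, is known from retina and brain. Cdh4 lay between 5.78 and 6.54 in Wnt arrays (median 6.10), between 6.86 and 8.75 in Shh arrays (median 7.71) and between 6.48 and 7.40 in hindbrain arrays (median 7.02). Every Wnt array was below every Shh array, while the hindbrain range overlapped both. Cdh4 fell by 0.89 on the log2 scale in Wnt against hindbrain (SE 0.19, adjusted p = 0.000495), rose by 0.74 ± 0.19 in Shh against hindbrain (adjusted p = 0.00412) and differed by -1.62 ± 0.19 between Wnt and Shh (adjusted p = 3.23e-07). Its second probe set gave -0.23 in Wnt (adjusted p = 0.326) and 0.38 in Shh (adjusted p = 0.0921) against hindbrain, and -0.61 in Wnt against Shh (adjusted p = 0.00789), in a fit over 41155 probe sets that called 35%, 29.4% and 27.6% of them in these comparisons. The E-cadherin gene Cdh1, typical of epithelium, averaged 6.92 ± 0.57 in Wnt, 7.27 ± 0.49 in Shh and 6.87 ± 0.33 in hindbrain arrays (SD, n = 8). Cdh3, encoding P-cadherin, and Cdh15, encoding the M-cadherin of muscle, also passed no test, with log2 fold changes between -0.25 and 0.50 over the 3 comparisons.

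Type II cadherins held the largest difference between the tumour groups. Cdh6, first known from kidney and used at boundaries of the embryonic brain, lay between 11.15 and 12.48 in Wnt arrays (median 11.48), between 5.65 and 7.93 in Shh arrays (median 6.47) and between 7.35 and 8.87 in hindbrain arrays (median 7.93). All Wnt arrays lay above all others, and the Shh and hindbrain ranges overlapped. Cdh6 was 12.9-fold higher in Wnt than in hindbrain (log2 3.69 ± 0.26, adjusted p = 1.74e-11), lower in Shh than in hindbrain (-1.42 ± 0.26, adjusted p = 0.000109) and 34.5-fold higher in Wnt than in Shh (5.11 ± 0.26, adjusted p = 1.24e-13). It shared this rise in the Wnt group with Cdh22, a cadherin of pituitary and brain. Cdh22 lay between 9.26 and 10.96 in Wnt arrays (median 9.93), between 7.25 and 8.13 in Shh arrays (median 7.84) and between 6.68 and 8.10 in hindbrain arrays (median 7.44). Its Wnt arrays overlapped neither other group, with 2.66 ± 0.23 against hindbrain (adjusted p = 7.99e-10) and 2.34 ± 0.23 against Shh (adjusted p = 1.53e-08), and its Shh arrays gave 0.32 ± 0.23 against hindbrain (adjusted p = 0.295).

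Cdh11, a cadherin of mesenchymal cells and bone, rose in both tumour groups. It lay between 10.99 and 12.40 in Wnt arrays (median 11.51), between 10.38 and 11.27 in Shh arrays (median 10.81) and between 7.55 and 8.46 in hindbrain arrays (median 8.27). Neither tumour group overlapped hindbrain, while the Wnt and Shh ranges overlapped. The rise was 10.7-fold in Wnt (log2 3.42 ± 0.16, adjusted p = 1.93e-14) and 6.28-fold in Shh (2.65 ± 0.16, adjusted p = 9.16e-12). Beside it, fibroblast markers were higher for 8 of 10 genes and lower for 1 of 10 in each. Cdh11 was also higher in Wnt than in Shh (0.77 ± 0.16, adjusted p = 0.000554), a call lost with the endothelial marker mean as a covariate (0.36, adjusted p = 0.409).

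Cdh20, a type II cadherin of the nervous system, lay between 6.69 and 9.44 in Wnt arrays (median 7.90), between 7.84 and 10.17 in Shh arrays (median 8.85) and between 5.64 and 6.22 in hindbrain arrays (median 5.82). Both tumour groups were above hindbrain in every array and spread over several log2 units. Cdh20 was 4.55-fold higher in Wnt (2.19 ± 0.36, adjusted p = 1.76e-05) and 9.05-fold higher in Shh (3.18 ± 0.36, adjusted p = 2.03e-07) than in hindbrain. Beside it in Shh, granule neuron precursor markers were higher for 9 of 10 genes and astrocyte markers for 6 of 9. In Wnt these counts were 2 of 10 and 4 of 9, with 1 gene of each list lower. The part of such cells in the changes of Cdh20 and other neural genes was not tested. The Wnt against Shh difference of -0.99 ± 0.36 (adjusted p = 0.0344) was lost in 8 of 24 fits without 1 array, those without Wnt arrays 2, 4, 7 or 8 or Shh arrays 1, 2, 7 or 8 (-0.97 to -0.80), and in a fit to the tumour groups alone (adjusted p = 0.0874).

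Smaller changes marked the remaining type II cadherins. Cdh24, described as a catenin-binding type II cadherin, was 0.49 ± 0.10 higher in Wnt (adjusted p = 0.000165) and 0.56 ± 0.10 higher in Shh (adjusted p = 7.37e-05) than in hindbrain, with no overlap in either. With the endothelial marker mean as a covariate the Wnt difference of Cdh24 was 0.10 (adjusted p = 0.791). Cdh8, a neural cadherin, was 1.30 ± 0.35 higher in Wnt than in hindbrain (adjusted p = 0.00331), with a range of 5.001 to 8.65 in Wnt arrays (median 6.42), 5.17 to 6.86 in Shh arrays (median 5.71) and 4.59 to 5.68 in hindbrain arrays (median 5.04), all overlapping. With that covariate Cdh8 changed sign to -0.72 and was not called (adjusted p = 0.444). In Shh, Cdh8 gave 0.67 ± 0.35 (adjusted p = 0.137), which passed the test without Wnt array 8 (adjusted p = 0.0468) and in a fit without the Wnt group (adjusted p = 0.0145). Cdh10, also neural, was lower in Wnt than in Shh (-1.14 ± 0.36, adjusted p = 0.0152), with a range of 4.03 to 7.15 in Wnt arrays (median 4.48), 4.32 to 7.23 in Shh arrays (median 6.10) and 4.79 to 5.47 in hindbrain arrays (median 5.08). Wnt array 1 stood at 7.15 and the other Wnt arrays at or below 4.87. With the covariate the Wnt against Shh value of Cdh10 was -2.57 (adjusted p = 0.00173), and its Wnt against hindbrain value of -0.29 (adjusted p = 0.555) became -2.05 (adjusted p = 0.0237). In Shh against hindbrain Cdh10 gave 0.84 ± 0.36 (adjusted p = 0.0681), and it passed without Wnt array 1 (0.84), without Shh array 3 (1.07), with array weights (0.87) and in a fit without the Wnt group (0.84). Cdh7 was lower in Wnt than in hindbrain (-0.37 ± 0.11, adjusted p = 0.00909), and so was Cdh18 (-0.61 ± 0.23, adjusted p = 0.0325). The covariate ended the call of Cdh7 (-0.47, adjusted p = 0.201), and that of Cdh18 (-0.61, adjusted p = 0.465). The call of Cdh18 was also lost with quantile normalization (-0.58, adjusted p = 0.0513) and without Wnt arrays 1 or 5 or hindbrain arrays 1, 3, 4 or 8 (-0.59 to -0.45). Some group means of these genes lay within the ERCC range, so the size of their differences is uncertain. They were those of Cdh8 in hindbrain (5.15), Cdh10 in Wnt and hindbrain (4.79 and 5.08), and Cdh7 (4.99 and 5.19) and Cdh18 (4.91 and 5.21) in Wnt and Shh arrays. Cdh9, Cdh12 and Cdh19, all within the ERCC range, each passed at least 1 test, with log2 fold changes between -0.90 and 0.65 over the 3 comparisons.

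**Figure D2:**
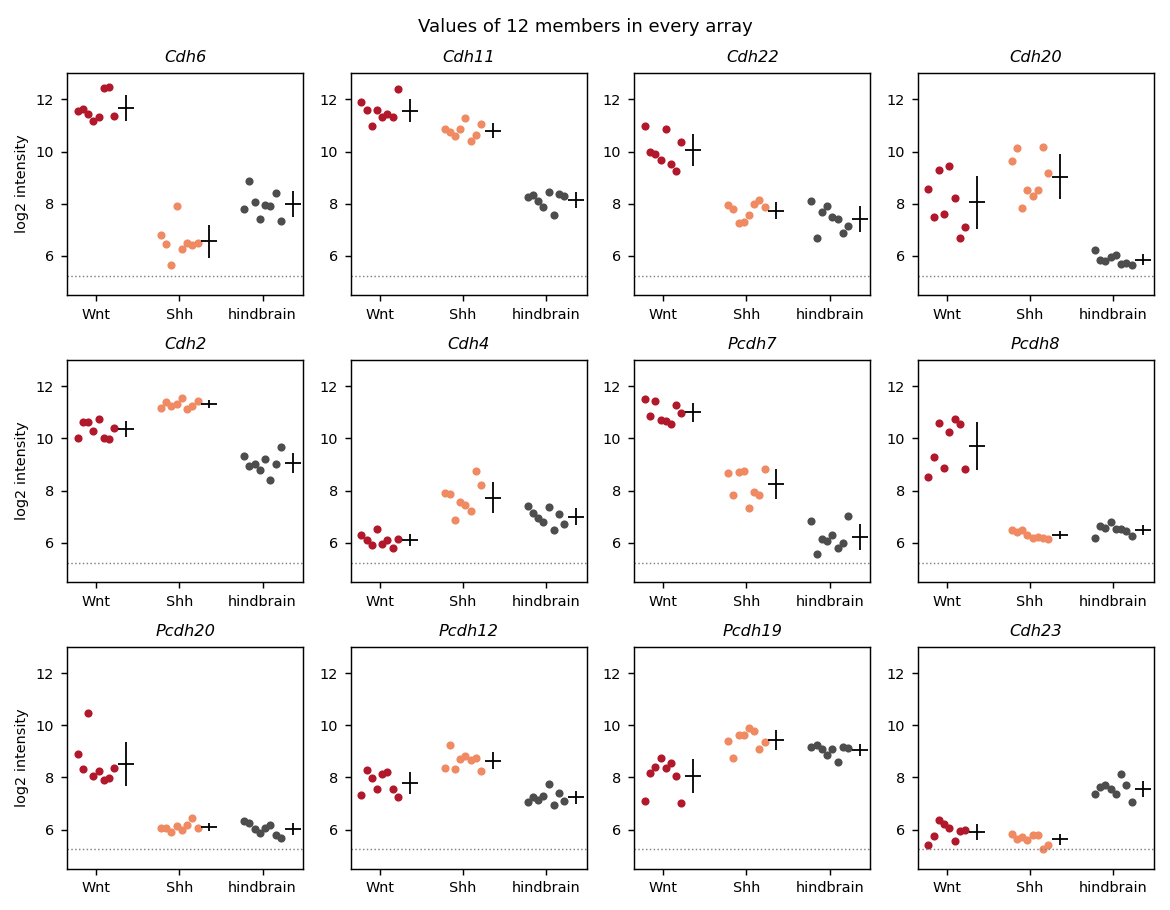
Log2 intensity of 12 cadherin and protocadherin genes in each of the 8 Wnt, 8 Shh and 8 hindbrain arrays (points), with the mean ± SD beside each group and a dotted line at the 95th percentile of the ERCC controls, 5.24. Cdh6, Cdh22, Pcdh7, Pcdh8 and Pcdh20 sat higher in every Wnt array than in any Shh or hindbrain array. Cdh23 sat lower in every tumour array than in any hindbrain array.

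Among the other cadherins, Cdh23 fell in both tumour groups. It encodes a long cadherin that forms the tip links of hair cells with protocadherin 15. Cdh23 lay between 5.43 and 6.37 in Wnt arrays (median 5.97), between 5.26 and 5.85 in Shh arrays (median 5.69) and between 7.04 and 8.12 in hindbrain arrays (median 7.60). Hindbrain arrays lay above all tumour arrays, and the tumour groups overlapped. The log2 fold change was -1.64 ± 0.14 in Wnt (adjusted p = 4.02e-10) and -1.93 ± 0.14 in Shh (adjusted p = 9.33e-11), beside lower microglia and macrophage markers in both groups. Between Wnt and Shh Cdh23 gave 0.29 ± 0.14 (adjusted p = 0.108), and it passed that test without Wnt array 1 (0.36). No other of the 57 genes lay below hindbrain without overlap in the Wnt group, as 9.42% of all genes did, and in the Shh group 1 other did, the dim Cdh9, as 5.55% of all genes did.

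T-cadherin, encoded by Cdh13, has no cytoplasmic tail, is held in the membrane by a lipid anchor and binds adiponectin on vessels. Cdh13 lay between 6.50 and 9.68 in Wnt arrays (median 7.43), between 6.98 and 9.60 in Shh arrays (median 7.92) and between 6.58 and 8.33 in hindbrain arrays (median 6.93). All of these ranges overlapped. It was higher in Shh than in hindbrain (1.08 ± 0.38, adjusted p = 0.0289), a call lost with the endothelial marker mean as a covariate (0.79, adjusted p = 0.0929) and without Shh arrays 2, 3 or 8 or hindbrain arrays 1 or 4 (0.87 to 1.02), and in Wnt it gave 0.56 ± 0.38 (adjusted p = 0.255). In Wnt against Shh Cdh13 gave -0.52 ± 0.38 (adjusted p = 0.318), -0.91 (adjusted p = 0.0435) without Wnt arrays 1 and 8, and -1.85 (adjusted p = 0.0377) with the covariate. Cdh16, a cadherin of kidney tubules, was slightly lower in Shh than in hindbrain (-0.28 ± 0.09, adjusted p = 0.012), and Cdh26 passed no test. Cdh17, the dim gene of liver-intestine cadherin, was 0.41 ± 0.08 higher in Wnt than in hindbrain (adjusted p = 0.000269), with all group means within the ERCC range.

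Non-clustered protocadherins included the strongest riser of the 57 genes. Pcdh7, a protocadherin of neural and several other tissues, lay between 10.56 and 11.49 in Wnt arrays (median 10.91), between 7.31 and 8.82 in Shh arrays (median 8.32) and between 5.56 and 7.01 in hindbrain arrays (median 6.10). The 3 groups did not overlap. Pcdh7 was 27.6-fold higher in Wnt than in hindbrain (log2 4.78 ± 0.23, adjusted p = 1.77e-14), 4.08-fold higher in Shh than in hindbrain (2.03 ± 0.23, adjusted p = 1.61e-07) and 6.75-fold higher in Wnt than in Shh (2.75 ± 0.23, adjusted p = 6.94e-10).

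Pcdh8 and Pcdh20 rose in the Wnt group and passed no test in the Shh group. Pcdh8, whose product is induced by activity at synapses in the rat, lay between 8.52 and 10.75 in Wnt arrays (median 9.77), between 6.16 and 6.49 in Shh arrays (median 6.26) and between 6.19 and 6.81 in hindbrain arrays (median 6.54). Pcdh20 lay between 7.90 and 10.47 in Wnt arrays (median 8.27), between 5.91 and 6.43 in Shh arrays (median 6.07) and between 5.68 and 6.34 in hindbrain arrays (median 6.04). For both genes the Wnt arrays lay above all others, and the Shh and hindbrain arrays overlapped within a narrow range. Pcdh8 was 9.22-fold higher in Wnt than in hindbrain (3.21 ± 0.26, adjusted p = 1.82e-10) and 10.6-fold higher than in Shh (3.40 ± 0.26, adjusted p = 1.39e-10), with -0.19 ± 0.26 in Shh against hindbrain (adjusted p = 0.592). Pcdh20 was 5.64-fold higher in Wnt than in hindbrain (2.50 ± 0.24, adjusted p = 4.56e-09) and 5.36-fold higher than in Shh (2.42 ± 0.24, adjusted p = 1.67e-08), with 0.07 ± 0.24 in Shh against hindbrain (adjusted p = 0.842).

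Pcdh17, a protocadherin of axons and synapses, lay between 7.95 and 9.40 in Wnt arrays (median 8.70), between 5.84 and 9.27 in Shh arrays (median 7.18) and between 6.33 and 6.73 in hindbrain arrays (median 6.52). Wnt arrays were above all hindbrain arrays, and Shh arrays spread across both. It rose by 2.16 ± 0.30 in Wnt against hindbrain (adjusted p = 1.33e-06), and Wnt arrays exceeded Shh arrays by 1.41 ± 0.30 (adjusted p = 0.000525), which became 1.39 with adjusted p = 0.0806 when the endothelial marker mean was a covariate. In Shh against hindbrain it gave 0.75 ± 0.30 (adjusted p = 0.0496), and this call was made in 6 of 24 fits without 1 array, those without Shh arrays 1, 6 or 8 or Wnt arrays 3, 4 or 8, and lost in the other 18 (0.47 to 0.79). Quantile normalization (0.67, adjusted p = 0.081) and a shift of the arrays to 1 median (0.66, adjusted p = 0.0731) ended it too.

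Pcdh12, also named VE-cadherin-2, is a protocadherin of endothelial cells. It lay between 7.26 and 8.27 in Wnt arrays (median 7.77), between 8.26 and 9.22 in Shh arrays (median 8.68) and between 6.94 and 7.76 in hindbrain arrays (median 7.19). Shh arrays were above all hindbrain arrays, and Wnt arrays overlapped both. Pcdh12 rose by 1.40 ± 0.16 in Shh (adjusted p = 1.85e-07) and 0.55 ± 0.16 in Wnt (adjusted p = 0.00592) against hindbrain, in the same Wnt arrays in which all 16 endothelial markers fell. It was lower in Wnt than in Shh (-0.85 ± 0.16, adjusted p = 0.000128), a call lost with the endothelial marker mean as a covariate (-0.40, adjusted p = 0.325).

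Pcdh19, mutated in an X-linked epilepsy of humans, and Pcdh1 fell in the Wnt group beside the endothelial markers. Pcdh19 lay between 7.04 and 8.75 in Wnt arrays (median 8.27), between 8.76 and 9.90 in Shh arrays (median 9.52) and between 8.59 and 9.25 in hindbrain arrays (median 9.12). Every Wnt array was below every Shh array. Its log2 fold change was -0.99 ± 0.21 in Wnt against hindbrain (adjusted p = 0.000388) and -1.39 ± 0.21 in Wnt against Shh (adjusted p = 1.04e-05). With the endothelial marker mean as a covariate the first changed sign to 0.66 (adjusted p = 0.0221) and the second was -0.04 (adjusted p = 0.912), and the Shh against hindbrain value of 0.40 (adjusted p = 0.143) became 0.70 (adjusted p = 8.4e-06). Pcdh1, a protocadherin of epithelial and neural cells, lay between 7.67 and 8.66 in Wnt arrays (median 8.24), between 9.04 and 9.43 in Shh arrays (median 9.16) and between 8.65 and 9.19 in hindbrain arrays (median 8.97). It gave -0.75 ± 0.11 in Wnt against hindbrain (adjusted p = 2.07e-06) and -0.98 ± 0.11 in Wnt against Shh (adjusted p = 7.77e-08), the first of which was -0.24 (adjusted p = 0.459) with that covariate. In Shh against hindbrain Pcdh1 gave 0.23 ± 0.11 (adjusted p = 0.1001). It passed there with the covariate (0.32, adjusted p = 0.0106), in a fit without the Wnt group (adjusted p = 0.0415) and without Wnt arrays 1 and 8 (adjusted p = 0.0459).

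Of the others, Pcdh9 of neural tissue was lower in Wnt than in hindbrain (-0.63 ± 0.20, adjusted p = 0.00992) and lower than in Shh (-0.85 ± 0.20, adjusted p = 0.00121), both calls lost with the covariate, where the values were -0.66 and -0.87 with wider errors (adjusted p = 0.322 and 0.0942). The Wnt mean of Pcdh9, 5.01, lay within the ERCC range, so the size of both differences is uncertain. Pcdh10, which guides neural circuits, was higher in Shh than in hindbrain (0.79 ± 0.25, adjusted p = 0.0143). Its difference of -0.64 ± 0.25 in Wnt against Shh (adjusted p = 0.0486) held in the fits without Wnt array 2 or Shh arrays 2, 3 or 5 and was lost in the other 20 fits without 1 array (-0.66 to -0.45). Pcdh15, the tip link partner of Cdh23, was higher in Shh than in hindbrain (0.85 ± 0.27, adjusted p = 0.0131), and its second probe set gave 0.03 there (adjusted p = 0.902) and 0.64 in Wnt against hindbrain (adjusted p = 0.00267). The probe sets of Pcdh15 thus disagree on the tumour group, and their mean gave 0.44 in Shh (adjusted p = 0.0792) and 0.61 in Wnt (adjusted p = 0.0125) against hindbrain. In Wnt against hindbrain the chosen probe set gave 0.59 ± 0.27 (adjusted p = 0.0748) and passed without Wnt array 5 (0.72). Pcdh18 lay between 8.93 and 10.76 in Wnt arrays (median 9.93), between 9.64 and 10.25 in Shh arrays (median 9.74) and between 8.90 and 9.91 in hindbrain arrays (median 9.49). It passed no test, with 0.39 ± 0.21 in Wnt and 0.36 ± 0.21 in Shh against hindbrain (adjusted p = 0.133 and 0.177). Pcdh11x lay within the ERCC range.

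The 22 beta protocadherins were mostly higher in the tumour groups than in hindbrain. In Wnt against hindbrain 21 of 22 rose, beside 23.2% of all genes, with a median log2 fold change of 1.36, and only the dim Pcdhb1 did not pass (-0.00086, adjusted p = 0.996). In Shh against hindbrain 16 of 22 rose, beside 18.9% of all genes, with a median of 1.12, and 6 did not pass (Pcdhb1, Pcdhb3, Pcdhb6, Pcdhb7, Pcdhb8 and Pcdhb11, at -0.25 to 0.58). In Wnt against Shh 8 were higher, 1 was lower and 13 did not pass, beside 18% of all genes higher and 17.8% lower, with a median of 0.26. Beta protocadherins are related genes in a row, each of a single exon, so probes may read more than 1 of them, and their counts are not of independent genes. Averaged over the 22 genes, the level lay between 6.92 and 8.07 in Wnt arrays (median 7.21), between 6.53 and 7.10 in Shh arrays (median 7.004) and between 5.64 and 6.21 in hindbrain arrays (median 5.99). Every tumour array was above every hindbrain array in this average, and the Wnt and Shh ranges overlapped.

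Pcdhb2 had the largest fitted change of the beta genes in Wnt against hindbrain. It lay between 6.30 and 9.18 in Wnt arrays (median 7.95), between 4.87 and 7.24 in Shh arrays (median 6.78) and between 4.28 and 5.43 in hindbrain arrays (median 4.94). The rise was 7.47-fold in Wnt (log2 2.90 ± 0.35, adjusted p = 1.82e-07) and 3.12-fold in Shh (1.64 ± 0.35, adjusted p = 0.000631), and since the hindbrain mean of 4.82 lies within the ERCC range its size is uncertain. Hindbrain means of Pcdhb5, Pcdhb9, Pcdhb10 and Pcdhb21 (4.31, 4.32, 5.03 and 4.83) lay in that range too. Among genes above it in all groups, Pcdhb20 lay between 7.97 and 8.80 in Wnt arrays (median 8.25), between 8.01 and 8.63 in Shh arrays (median 8.44) and between 6.70 and 7.30 in hindbrain arrays (median 7.10). Its tumour arrays did not overlap hindbrain, at 1.22 ± 0.11 in Wnt (adjusted p = 1.49e-09) and 1.30 ± 0.11 in Shh (adjusted p = 1.81e-09). Pcdhb17 was the single beta gene lower in Wnt than in Shh (-0.30 ± 0.10, adjusted p = 0.0174), while it was 0.92 ± 0.10 higher in Wnt and 1.22 ± 0.10 higher in Shh than in hindbrain (adjusted p = 2.82e-08 and 7.97e-10).

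The beta cluster runs in the order of the gene numbers in the RefSeq gene table, and its first 11 and second 11 genes are counted apart here. Of Pcdhb1 to Pcdhb11, 10 of 11 rose in Wnt against hindbrain (median 1.49) and 5 of 11 in Shh against hindbrain (median 0.58). Of Pcdhb12 to Pcdhb22, 11 of 11 rose in Wnt (median 1.28) and 11 of 11 in Shh (median 1.22). In Wnt against Shh, 8 of the first 11 were higher (median 0.91), and of the second 11 none was higher and 1 was lower (median 0.03). The 8 genes were Pcdhb2, Pcdhb3, Pcdhb6, Pcdhb7, Pcdhb8, Pcdhb9, Pcdhb10 and Pcdhb11. This division was drawn after the values had been seen, and it was not tested.

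Pcdhb8 showed the contrast most plainly, between 6.999 and 8.47 in Wnt arrays (median 7.46), between 6.16 and 6.71 in Shh arrays (median 6.57) and between 5.83 and 6.67 in hindbrain arrays (median 6.27). Its Wnt arrays overlapped neither of the others. Pcdhb8 was 1.38 ± 0.18 higher in Wnt than in hindbrain (adjusted p = 4.77e-07) and 1.11 ± 0.18 higher than in Shh (adjusted p = 2.07e-05), with 0.27 ± 0.18 in Shh against hindbrain (adjusted p = 0.242). Pcdhb6 was spread widest, between 6.40 and 9.57 in Wnt arrays, with 1.004 ± 0.33 against hindbrain (adjusted p = 0.0144) and 0.72 (adjusted p = 0.0907) without Wnt arrays 1 and 8. Pcdhb7 gave 0.58 ± 0.24 in Shh against hindbrain (adjusted p = 0.0545) and passed in the fits without Wnt arrays 1, 2 or 3, Shh array 5 or hindbrain arrays 1 or 5 (0.58 to 0.70). For Pcdhb19, at 0.28 ± 0.16 in Wnt against Shh (adjusted p = 0.194), the test was passed without Wnt array 6 (0.38).

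With the endothelial marker mean as a covariate, 5 of the 21 calls of beta genes in Wnt against hindbrain were lost, those of Pcdhb3 (1.26), Pcdhb4 (0.80), Pcdhb6 (0.43), Pcdhb7 (0.77) and Pcdhb22 (0.57), with adjusted p between 0.163 and 0.754. In Wnt against Shh, the covariate ended the calls of Pcdhb2 (1.18), Pcdhb3 (1.04), Pcdhb6 (0.79), Pcdhb7 (0.32), Pcdhb9 (0.69), Pcdhb10 (0.82) and Pcdhb17 (-0.38), with adjusted p between 0.0525 and 0.644. Pcdhb8 and Pcdhb11 kept theirs. The covariate differs between the groups itself, which widens the errors of these fits. Their estimates moved as well, in both directions. In Wnt against hindbrain, that of Pcdhb7 went from 1.49 to 0.77 and that of Pcdhb14 from 1.37 to 2.09.

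**Figure D3:**
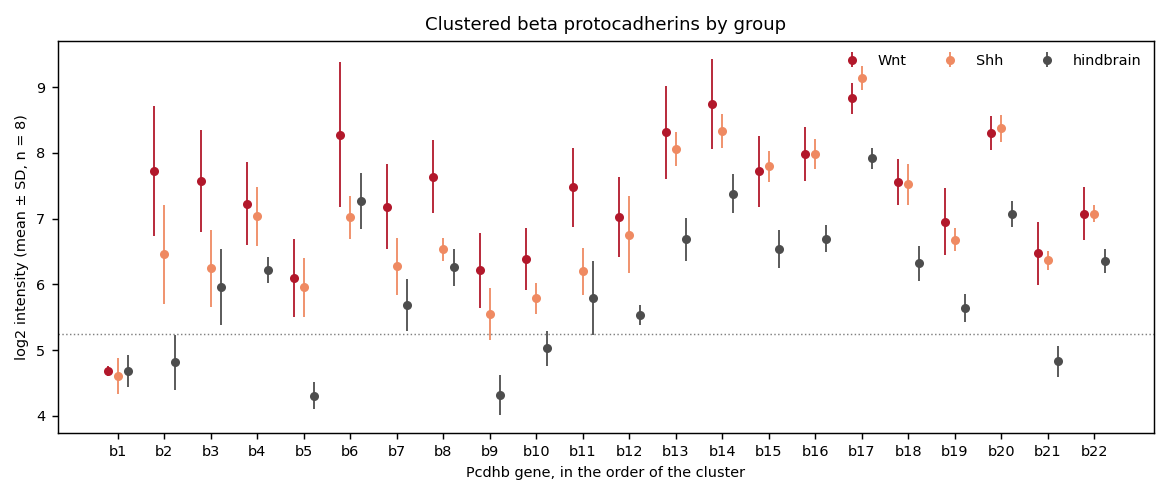
Mean ± SD (n = 8) of the log2 intensity of the 22 beta protocadherins in Wnt, Shh and hindbrain arrays, in the order of the gene cluster, with a dotted line at the 95th percentile of the ERCC controls, 5.24. Hindbrain means lie lowest for 20 of the 22 genes. Wnt means lie above Shh means for all of the first 11 genes, by 0.08 to 1.32. The tumour means from Pcdhb15 to Pcdhb22 differ by -0.30 to 0.28.

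Alpha and gamma protocadherins splice their variable exons to shared constant exons, and most of their probe sets carry several symbols. The single gene with its own probe set, Pcdhga10, passed no test, with -0.37 ± 0.25 in Wnt (adjusted p = 0.255) and -0.36 ± 0.25 in Shh (adjusted p = 0.269) against hindbrain. It lay between 8.67 and 11.50 in Wnt arrays (median 10.01), between 9.97 and 10.38 in Shh arrays (median 10.14) and between 10.20 and 10.78 in hindbrain arrays (median 10.52). The Wnt arrays spread to both sides of the other groups, with an SD of 0.90 against 0.15 in Shh and 0.17 in hindbrain arrays. A probe set that names 9 alpha genes averaged 5.93 ± 0.18 in Wnt, 5.97 ± 0.11 in Shh and 6.07 ± 0.15 in hindbrain arrays (SD, n = 8) and passed no test. A probe set that names 9 gamma genes averaged 5.71 ± 0.30 in Wnt, 5.93 ± 0.25 in Shh and 6.10 ± 0.22 in hindbrain arrays (SD, n = 8). It was 0.39 lower in Wnt than in hindbrain (-0.39 ± 0.13, adjusted p = 0.0157, over 41155 probe sets of which 35% were called), and in Shh against hindbrain it gave -0.17 ± 0.13 (adjusted p = 0.338). A probe set that names Pcdhga10 and Gm19774 went the other way from Pcdhga10's own, at 11.94 ± 0.08 in Wnt, 11.73 ± 0.20 in Shh and 11.56 ± 0.09 in hindbrain arrays (SD, n = 8). It was 0.38 ± 0.07 higher in Wnt than in hindbrain (adjusted p = 0.000204) and 0.21 ± 0.07 higher in Wnt than in Shh (adjusted p = 0.0376), with 0.17 ± 0.07 in Shh against hindbrain (adjusted p = 0.0859). These probe sets name no single gene and are not among the 57.

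Catenins and other partners of cadherins moved less uniformly. Of 17 measured partners, 6 rose and 9 fell in Wnt against hindbrain (median -0.24), 4 rose and 5 fell in Shh against hindbrain (median -0.16), and 4 were higher and 6 lower in Wnt against Shh (median -0.17). Of all genes, 23.2% were called higher and 22% lower in the first comparison, 18.9% each way in the second, and 18% higher and 17.8% lower in the third, so the Shh counts lie near the background. Nectin3, an immunoglobulin-like adhesion protein of adherens junctions, lay between 8.13 and 9.04 in Wnt arrays (median 8.94), between 7.50 and 7.88 in Shh arrays (median 7.70) and between 6.17 and 6.92 in hindbrain arrays (median 6.71). The 3 groups did not overlap, at 2.05 ± 0.14 in Wnt (adjusted p = 5.64e-12) and 1.04 ± 0.14 in Shh (adjusted p = 1.24e-06) against hindbrain. Among alpha-catenins, which link cadherin complexes to actin, the neural gene Ctnna2 rose by 2.005 ± 0.25 in Wnt and 1.49 ± 0.25 in Shh (adjusted p = 3.8e-07 and 5.1e-05), and Ctnna3, the form of heart and testis, fell by 1.69 in Wnt and 0.96 in Shh (adjusted p = 2.22e-10 and 4.78e-06). The general alpha-catenin gene Ctnna1, named here after its values had been seen, averaged 10.63 ± 0.09 in Wnt, 10.80 ± 0.20 in Shh and 10.76 ± 0.14 in hindbrain arrays (SD, n = 8) and passed no test. Ctnnd1, encoding p120-catenin and likewise chosen afterwards, was 0.19 ± 0.07 higher in Wnt (adjusted p = 0.0341) and 0.22 ± 0.07 higher in Shh (adjusted p = 0.0149) than in hindbrain.

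Among 25 other genes of the cadherin superfamily, 9 rose and 6 fell in Wnt against hindbrain (median 0.16), 5 rose and 5 fell in Shh against hindbrain (median 0.02), and 11 were higher and 5 lower in Wnt against Shh (median 0.14). Beside the same shares of all genes (23.2% and 22%, 18.9% each way, 18% and 17.8%), the Shh counts and the count lower in Wnt than in hindbrain lie near the background. Clstn2, a calsyntenin of synapses, lay between 9.65 and 11.44 in Wnt arrays (median 11.09), between 7.06 and 7.99 in Shh arrays (median 7.50) and between 5.47 and 6.15 in hindbrain arrays (median 5.78). No groups overlapped, with 5.14 ± 0.20 in Wnt (adjusted p = 7.34e-16) and 1.72 ± 0.20 in Shh (adjusted p = 3.59e-07) against hindbrain. Dsc3, a desmosomal cadherin of stratified epithelium, lay between 6.604 and 10.24 in Wnt arrays (median 9.07), between 4.47 and 5.34 in Shh arrays (median 4.77) and between 4.57 and 5.04 in hindbrain arrays (median 4.76). Its rise of 4.11 ± 0.33 in Wnt against hindbrain (adjusted p = 1.55e-10) starts within the ERCC range, and in Shh it gave 0.06 ± 0.33 (adjusted p = 0.913). Fat1, a giant cadherin of the Fat family, was 2.95 ± 0.15 higher in Wnt (adjusted p = 5.36e-14) and 0.93 ± 0.15 higher in Shh (adjusted p = 2.4e-05) than in hindbrain.

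**Figure D4:**
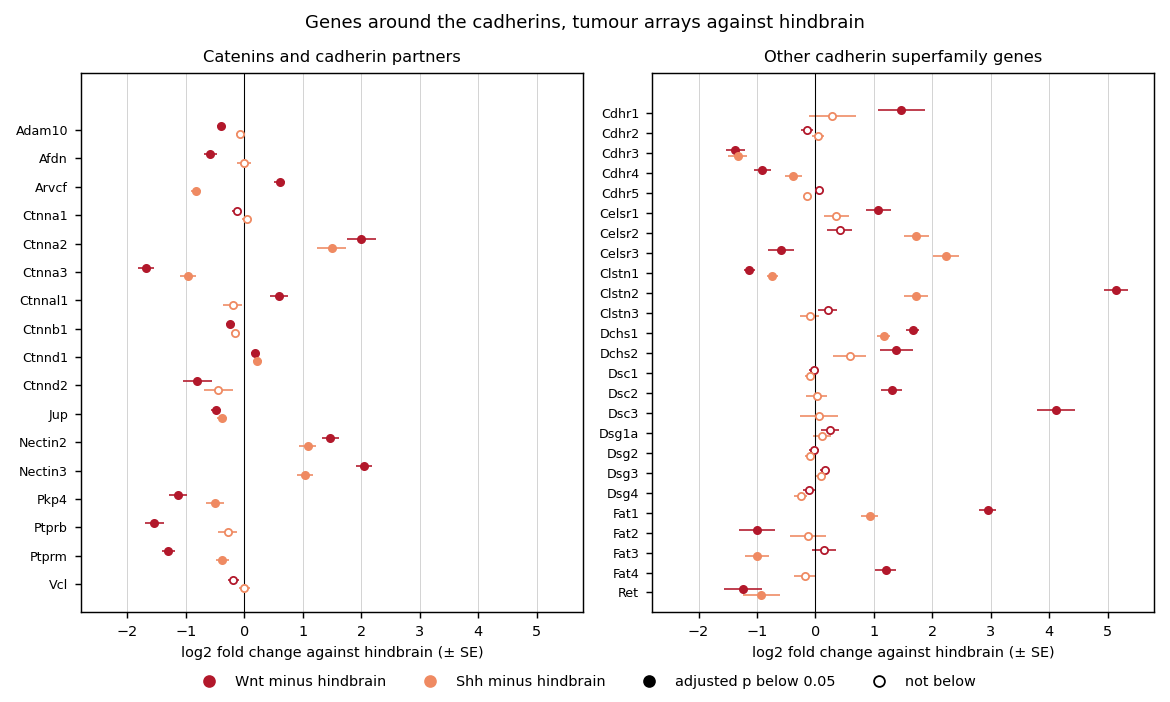
Log2 fold change of 17 catenins and cadherin partners and of 25 other cadherin superfamily genes in Wnt (dark) and Shh (light) arrays against hindbrain arrays, with bars of ± 1 SE and filled points where the adjusted p was under 0.05. Clstn2 at 5.14 and Dsc3 at 4.11 lie farthest to the right in Wnt, and the partner genes lie on both sides of 0.

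Of 7 measured transcription factors that regulate cadherin genes in epithelial cells changing to a mesenchymal state, 2 rose and 2 fell in Wnt, and 2 rose and 1 fell in Shh, against hindbrain, and 1 was higher and 2 lower in Wnt against Shh. These counts of so few genes are near the shares of all genes called (23.2% and 22%, 18.9% each way, 18% and 17.8%). Snai1, a repressor of Cdh1, was 0.82 ± 0.13 higher in Wnt than in hindbrain (adjusted p = 1.24e-05) and gave 0.12 ± 0.13 in Shh (adjusted p = 0.496). Klf8 was lower in Wnt (-0.63 ± 0.10, adjusted p = 8.2e-06) and in Shh (-0.26 ± 0.10, adjusted p = 0.037) than in hindbrain. Zeb1, another repressor of Cdh1, was 0.61 lower in Wnt than in Shh (-0.61 ± 0.12, adjusted p = 0.000151). Of 9 measured chromatin regulators known to act on clustered protocadherins, 1 rose and 3 fell in Wnt, and 4 rose and 0 fell in Shh, against hindbrain, with log2 fold changes between -0.32 and 0.33, beside 23.2% and 22% of all genes in Wnt and 18.9% each way in Shh. Between Wnt and Shh, 5 of the 9 were lower in Wnt, beside 17.8% of all genes, with Dnmt3b, a DNA methyltransferase, at -0.50 ± 0.11 (adjusted p = 0.000833), the cohesin subunit Smc3 at -0.32 ± 0.08 (adjusted p = 0.00176) and the cohesin loader Nipbl at -0.26 ± 0.07 (adjusted p = 0.00276).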

How the data were processed

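Each of the 24 arrays gave 1 deposited log2 value per probe set, as the range of 1.73 to 14.0 shows, and how the authors summarised and normalized them is not given in the sources used here. Partek 6.6 is named, without a role, per the submitters' processing notes. Array medians lay between 5.97 and 6.18, no 2 arrays held identical values, and precision is limited by how many arrays there are.

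Of 41345 probe sets, 190 were controls, 23521 carried 1 symbol, 1814 several and 15820 none. One probe set per gene (highest mean) left 22180 genes, fitted with limma 3.58.1 in R 4.3.3 (group as the single factor, lmFit and eBayes, 21 residual degrees of freedom) and tested on simulated data. Calls are two-sided. The members, lists and tests were chosen with earlier results of these data known. Genes named with values were those called in at least 1 comparison and above the ERCC range (45 genes), with values by array for those with a called log2 change of at least 1 and the 6 brightest, of which the beta genes are summarised, and the 3 strongest of each list. Same-numbered arrays were not treated as pairs, since their deviations from the group means correlated between -0.146 and 0.282. Separate animals are shown only by the label of biological replicates. Alternatives were all probe sets or their mean, quantile normalization or a shift to 1 median, array weights, a variance trend, no dim genes, only the 2 groups compared, array number as a block, the mean of 15 endothelial markers as a covariate, and leaving out Wnt arrays 1 and 8 or each array in turn.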

Additional observations from a re-analysis of the deposited data

Results flagged for a closer look

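Among the 135 sets of 8 values (45 genes in 3 groups), 10 held an array far from the others by Dixon's test, which chance does for about 5% of sets. In Wnt arrays these were Cdh10 in array 1 (7.15, next 4.87), Cdh13 in array 8 (9.68, next 7.99), Pcdhb22 in array 6 (6.20, next 6.95) and, all in array 3, Pcdh20 (10.47, next 8.88), Pcdhb13 (9.81, next 8.67) and Pcdhb18 (8.29, next 7.66). In Shh arrays they were Cdh24 in array 7 (8.70, next 8.21) and Pcdhb8 in array 2 (6.16, next 6.45). In hindbrain arrays they were Cdh13 in array 8 (8.33, next 7.11) and Pcdhb17 in array 6 (7.56, next 7.88).

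Cdh6 and Cdh4 were called in opposite directions in the tumour groups against hindbrain. The difference between Wnt and Shh was 5.11 for Cdh6 (adjusted p = 1.24e-13) and -1.62 for Cdh4 (adjusted p = 3.23e-07), both from limma.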

How the results depend on the processing

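The 6 counts of higher and lower genes stayed within 1.5 times of the reported ones in every setting tried except the endothelial marker mean as a covariate. With it, 3 genes were lower in Wnt than in hindbrain, 2 of them among the 9 reported. In Wnt against Shh, 11 were higher, 8 of them among the 17 reported, and 4 were lower, 3 of them among the 12 reported. All-gene shares fell as well, to 7.4%, 8.05% and 7.71% in the same order. With the covariate, 28 genes were higher in Wnt than in hindbrain, 26 of them among the 35 reported, beside 8.62% of all genes. Pcdh19 (0.66) and Cdh8 (-0.72) changed sign in Wnt against hindbrain under that covariate, and the cause was not tested. Fits without 1 array gave 35 to 36 genes higher and 7 to 10 lower in Wnt than in hindbrain, 26 to 29 higher and 4 lower in Shh than in hindbrain, and 17 to 19 higher and 9 to 12 lower in Wnt than in Shh. A replicate block by array number gave 35 and 9, 29 and 4, and 17 and 9 for the same counts. Among the 45 genes that were above the ERCC range and called in at least 1 comparison it ended the calls of Cdh20 and Pcdh10 in Wnt against Shh and of Pcdh17 in Shh against hindbrain, and added those of Cdh10 and Pcdhb7 in Shh against hindbrain. Shifting arrays to 1 median, which set the median change of all genes to -0.136 in Wnt and -0.108 in Shh against hindbrain, gave 35 and 11, 27 and 5, and 17 and 12, with all-gene shares of 17.9% higher and 33.5% lower in Wnt than in hindbrain. Fits to the compared groups alone gave 32 genes higher in Shh than in hindbrain, and fits without Wnt arrays 1 and 8 gave 33. Low values near the ERCC range limit what can be said of Cdh9, Cdh12, Cdh17, Cdh19, Pcdh11x and Pcdhb1. They also limit the size of changes of Cdh7, Cdh8, Cdh10, Cdh18, Pcdh9, Pcdhb2, Pcdhb5, Pcdhb9, Pcdhb10 and Pcdhb21, each with at least 1 group mean in that range.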

Other observations

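Within a group, the beta protocadherins were not at the same level in every array. Wnt array 3 held the highest Wnt value for 14 of the 22 genes and averaged 8.07 over them, and Wnt array 1 held it for 4 and averaged 7.71, against 6.92 to 7.44 in the other Wnt arrays. Shh array 2 held the lowest Shh value for 12 of 22 genes (average 6.53), and hindbrain array 6 the lowest hindbrain value for 15 of 22 (average 5.64). The median SD of a beta gene was 0.56 in Wnt, 0.27 in Shh and 0.26 in hindbrain arrays. Over Pcdhb1 to Pcdhb11 the average per array lay between 6.27 and 7.64 in Wnt, between 5.73 and 6.45 in Shh and between 5.10 and 5.82 in hindbrain arrays. Over Pcdhb12 to Pcdhb22 it lay between 7.18 and 8.50 in Wnt, between 7.33 and 7.81 in Shh and between 6.08 and 6.62 in hindbrain arrays.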
